A study of Mus musculus with 4 samples.

Results

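Expression of the R-spondins (Rspo1, Rspo2, Rspo3 and Rspo4), of their receptors Lgr4, Lgr5 and Lgr6, and of the membrane ubiquitin ligases Znrf3 and Rnf43 was set side by side in a pair of stromal lines of the mouse. These 9 genes were chosen by name as 1 signalling module, and every probe set that the array annotation assigned to 1 of them alone was used. They made up 9 of the 18193 genes and 15 of the 45037 probe sets tested. The lines were OP9M2, labelled as mesenchymal stem cells and described as supportive of human blood progenitors in co-culture, and BFC012, labelled as a fibroblast from fetal liver and described as non-supportive. OP9M2 is 1 clone derived from the OP9 stromal line. Both lines were irradiated with 2000 rad and seeded at 25000 cells per square centimetre 48 hours before RNA was taken. OP9M2 was kept in medium with 20% fetal bovine serum and BFC012 in medium with 10%, so that line and serum cannot be told apart. Total RNA of each line was hybridized to 2 Affymetrix mouse expression arrays, labelled as biological replicates. Nothing in the labels says how the replicate cultures were separated, so the p-values measure the spread between these arrays, which may be partly technical.

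R-spondins are secreted proteins that raise the response of a cell to Wnt ligands. Znrf3 and Rnf43 tag Frizzled receptors for removal from the cell surface and thereby lower the number of Wnt receptors. An R-spondin binds an Lgr receptor together with 1 of these ligases and draws the ligase off the surface, which leaves more Frizzled and Lrp6 in place. In the liver, R-spondin signalling through Lgr4 and Lgr5 maintains the Wnt response of hepatocytes around the central vein, and Rspo3 is known there as a product of central vein endothelial cells and stellate cells. Znrf3, Rnf43 and Lgr5 are also targets of the Wnt pathway and form part of its feedback.

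Values are given in log2 units for each array, and differences are OP9M2 minus BFC012 on that scale, ± SE (n = 2 arrays per line). A background level of 6.09 log2 units was taken from probe sets of odorant-type receptors, and a gene counted as above background in a line when both of its arrays exceeded that level. A call required both a limma adjusted p under 0.05 and a change of 1 log2 unit or more. Where a line had no array above background, a fold is stated as at least the mean of the brighter line over the background level, and a difference is as measured and rests partly on values below background. The position of each probe set within its transcript was not given in the annotation used here. The brightest probe set of a gene was the one with the highest mean over the 4 arrays. Levels of different probe sets were used to pick the brightest and were averaged for some results. They were not read as relative amounts of RNA. In these bulk cultures, fewer cells that express a gene and less RNA per cell cannot be told apart.

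The 2 arrays of a line correlated at 0.980 for OP9M2 and 0.994 for BFC012 over all probe sets, against 0.941 to 0.954 between the lines. In OP9M2, 2842 probe sets lay at least 1 log2 unit apart between the replicates, against 291 in BFC012. The 3′ probe sets of the poly-A RNA spikes read 3.24 to 5.99 on OP9M2 replicate 2, below the 7.89 to 10.52 of OP9M2 replicate 1 and the 6.28 to 9.87 of the BFC012 arrays. Of 9 fibroblast and stromal markers, 6 were above background in OP9M2 and 6 in BFC012. By the brightest probe sets, 1 of the 9 was called higher in OP9M2 and 1 lower. The collagen gene Col1a2 was the higher one, at 14.25 and 14.14 in OP9M2 but at 6.18 and 6.07, near background, in BFC012. Dcn was lower by at least 67.3-fold, at 5.62 and 6.04 in OP9M2 and 11.73 and 12.60 in BFC012. Thy1 was below background on all 4 arrays. When 1 array was left out, its line had a single array left and the spread came from the other line alone, so calls gained or lost in this way depend on which pair gave the spread. Without BFC012 replicate 1 or 2, with the spread of the OP9M2 pair, 0 genes of the whole array were called by limma (2208 and 2252 at an unadjusted p under 0.05).

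Among the ligands, 1 of 2 probe sets each of Rspo2 and Rspo3 was called, in opposite directions. That of Rspo2 was higher in OP9M2 by at least 7.78-fold (3.74-fold by the lower OP9M2 array alone). That of Rspo3 was lower in OP9M2 by at least 5.15-fold. The other Rspo2 probe set was above background on all 4 arrays and did not separate the lines. The other Rspo3 probe set was below background on every array. Rspo1 and Rspo4 were below background on every array. By the brightest probe set of each gene, 1 of the 9 genes (Rspo3) was called lower in OP9M2 and 0 were called higher, against 3.56% and 2.36% of all genes. At an unadjusted p under 0.05, 3 of the 9 genes passed, against 23.3% of all genes. Over the 15 probe sets, 2 were called higher and 1 lower, against 1.8% and 2.66% of all probe sets. With so few genes these counts do not set the module apart from the rest of the array. The median difference was 0.057 over the 9 genes and 0.032 over all genes.

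**Figure D1:**
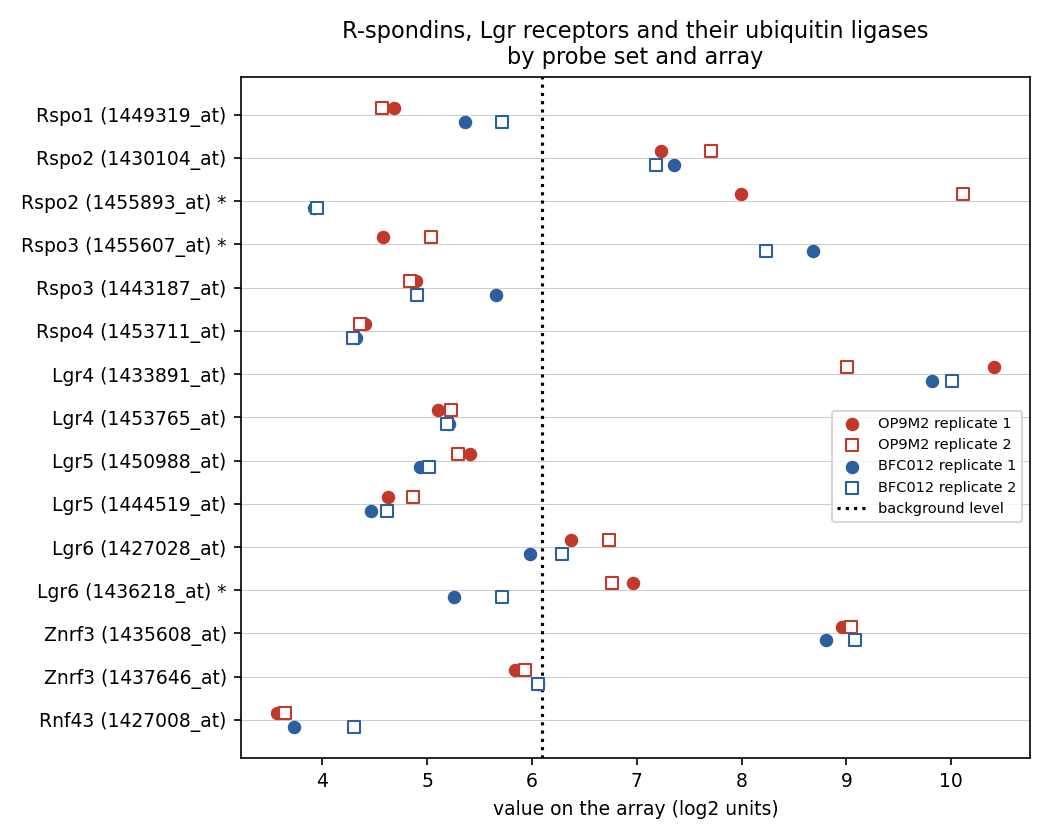
Log2 value on each of the 4 arrays (horizontal axis) for the 15 probe sets of the 9 genes (vertical axis), with OP9M2 in red above BFC012 in blue, and the background level of 6.09 as a dotted line. An asterisk marks the 3 called probe sets, in which the arrays of the lines lie on opposite sides of the background level.

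Rspo2, a ligand for Lgr4, Lgr5 and Lgr6 that acts in limb, lung and muscle development, was read by 2 probe sets that did not agree. Probe set 1455893_at stood at 7.99 and 10.11 on the OP9M2 arrays against 3.92 and 3.95 on the BFC012 arrays. The signal was above background in OP9M2 only, and the lower OP9M2 array lay 4.05 log2 units above the higher BFC012 array. The difference was 5.12 ± 0.72 (limma adjusted p = 0.0351). The OP9M2 arrays were themselves 2.12 log2 units apart, with the higher value on replicate 2, the array with the low poly-A spikes. Against the background level, replicate 1 alone gave at least 3.74-fold and replicate 2 alone at least 16.2-fold. Without OP9M2 replicate 1 the difference was 6.18, and without OP9M2 replicate 2 it was 4.06. Probe set 1430104_at stood at 7.23 and 7.71 in OP9M2 against 7.36 and 7.18 in BFC012. It was above background on all 4 arrays, and the lines overlapped. Its difference was 0.20 ± 0.21 (adjusted p = 0.707), with a 95% interval of −0.37 to 0.77. By the mean over the 4 arrays this probe set was the brighter (7.37 against 6.49) and so stood for Rspo2 in the count of genes. On the OP9M2 arrays alone, 1455893_at had the higher mean (9.05 against 7.47). When the probe sets of each gene were averaged, Rspo2 was called higher, with a difference of 2.66 (adjusted p = 0.0435).

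Rspo3, a ligand needed for the vessels of the placenta and for Wnt signalling around the central vein of the liver, ran the other way. Probe set 1455607_at stood at 4.58 and 5.04 in OP9M2 against 8.69 and 8.23 in BFC012. Both OP9M2 arrays were below background, both BFC012 arrays were above it, and a gap of 3.19 log2 units separated the lines. The difference was −3.65 ± 0.25 (limma adjusted p = 0.00599). It lay between −3.88 and −3.42 when any 1 array was left out. The call was lost without either BFC012 array, on the spread of the OP9M2 pair, and with a block for replicate number. The other Rspo3 probe set, 1443187_at, was below background on all arrays, at 4.89 and 4.84 in OP9M2 and 5.66 and 4.90 in BFC012, and its difference of −0.42 ± 0.28 was not called.

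Of the markers of other cell types, those of mesothelium were mostly lower in OP9M2, as Rspo3 was. Of 9 mesothelial markers, 6 were called lower in OP9M2 and 0 higher, and 3 were above background in OP9M2 against 9 in BFC012. Their mean level was 5.58 and 5.72 on the OP9M2 arrays and 9.75 and 10.09 on the BFC012 arrays. Of 8 stellate cell markers, 3 were called lower (Lhx2, Tcf21 and Gata4, all transcription factors) and 1 higher (Ecm1), at a mean level of 5.92 and 5.95 in OP9M2 and 7.08 and 7.30 in BFC012. Lrat and Reln, which also mark stellate cells, were below background on all 4 arrays. Of 8 endothelial markers, 0 were called and 1 had an unadjusted p under 0.05, at a mean level of 4.92 and 4.81 in OP9M2 and 4.79 and 4.68 in BFC012. Of 6 hepatocyte markers, 0 were called, with 1 at an unadjusted p under 0.05, and of 6 macrophage and blood cell markers 1 was called lower (Cd14). The part of these markers in the Rspo3 difference was not tested.

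Rspo1, a ligand known for its role in ovary development, read 4.69 and 4.57 in OP9M2 and 5.36 and 5.71 in BFC012. The arrays of the lines did not overlap, but all 4 were below background, and the difference of −0.91 ± 0.18 missed the threshold (adjusted p = 0.0762). Rspo4, whose human counterpart is needed for nail growth, read 4.41 and 4.36 in OP9M2 and 4.32 and 4.29 in BFC012. Its difference was 0.08 ± 0.13, with a 95% interval of −0.26 to 0.43.

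Of the receptors, Lgr4 was the one with clear signal in both lines. Lgr4, the broadly expressed member of the family, stood at 10.41 and 9.01 in OP9M2 against 9.81 and 10.01 in BFC012 by probe set 1433891_at. Both BFC012 arrays fell between the OP9M2 arrays, which were 1.40 log2 units apart with the lower value on replicate 2. The difference was −0.20 ± 0.49 (adjusted p = 0.890), and its 95% interval of −1.50 to 1.09 leaves room for a 2-fold change in either direction. Without OP9M2 replicate 1 it was −0.90, and without OP9M2 replicate 2 it was 0.50, with no call in either case. The other Lgr4 probe set, 1453765_at, was below background on all arrays.

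Lgr5, a marker of stem cells in the intestine and other epithelia, was not above background in either line. Probe set 1450988_at read 5.41 and 5.29 in OP9M2 and 4.93 and 5.02 in BFC012, and 1444519_at read 4.62 and 4.87 in OP9M2 and 4.47 and 4.61 in BFC012. The differences were 0.38 ± 0.14 (adjusted p = 0.246) and 0.21 ± 0.16 and were not called. A low level of Lgr5 cannot be told from background on these arrays.

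Lgr6, a marker of stem cells in the hair follicle, was close to background in both lines. Probe set 1436218_at stood at 6.96 and 6.77 in OP9M2 against 5.26 and 5.72 in BFC012. It was above background in OP9M2 only, by a small margin, and the lines were separated by 1.05 log2 units. The difference was 1.38 ± 0.21 (adjusted p = 0.0437), or at least 1.70-fold. The call was lost without OP9M2 replicate 1, where the difference was 1.28. It was also lost in other settings, among them equal array medians (1.36, limma adjusted p = 0.0505) and a block for replicate number. Probe set 1427028_at stood at 6.37 and 6.73 in OP9M2 against 5.98 and 6.29 in BFC012. It was the brighter of the pair by the mean over all arrays, but not in OP9M2. Its lines did not overlap, by a gap of 0.08, and its difference of 0.42 ± 0.20 was not called (adjusted p = 0.377).

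Of the ligases, Znrf3 was above background on all arrays and did not separate the lines. By probe set 1435608_at it stood at 8.96 and 9.05 in OP9M2 against 8.81 and 9.08 in BFC012, with the OP9M2 arrays between those of BFC012. The difference was 0.06 ± 0.16 (adjusted p = 0.909), and its 95% interval of −0.37 to 0.48 holds no 2-fold change. The other Znrf3 probe set, 1437646_at, was below background, at 5.83 and 5.93 in OP9M2 and 6.06 and 6.05 in BFC012. Rnf43, the paralogue of Znrf3, was below background on all arrays, at 3.57 and 3.65 in OP9M2 and 3.73 and 4.30 in BFC012, with a difference of −0.41 ± 0.23 (adjusted p = 0.446).

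In all, 7 of the 15 probe sets, for 5 of the 9 genes (Rspo2, Rspo3, Lgr4, Lgr6 and Znrf3), were above background in at least 1 line. At a stricter background level of 6.84, 5 probe sets stayed above it, and Lgr6 was lost.

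**Figure D2:**
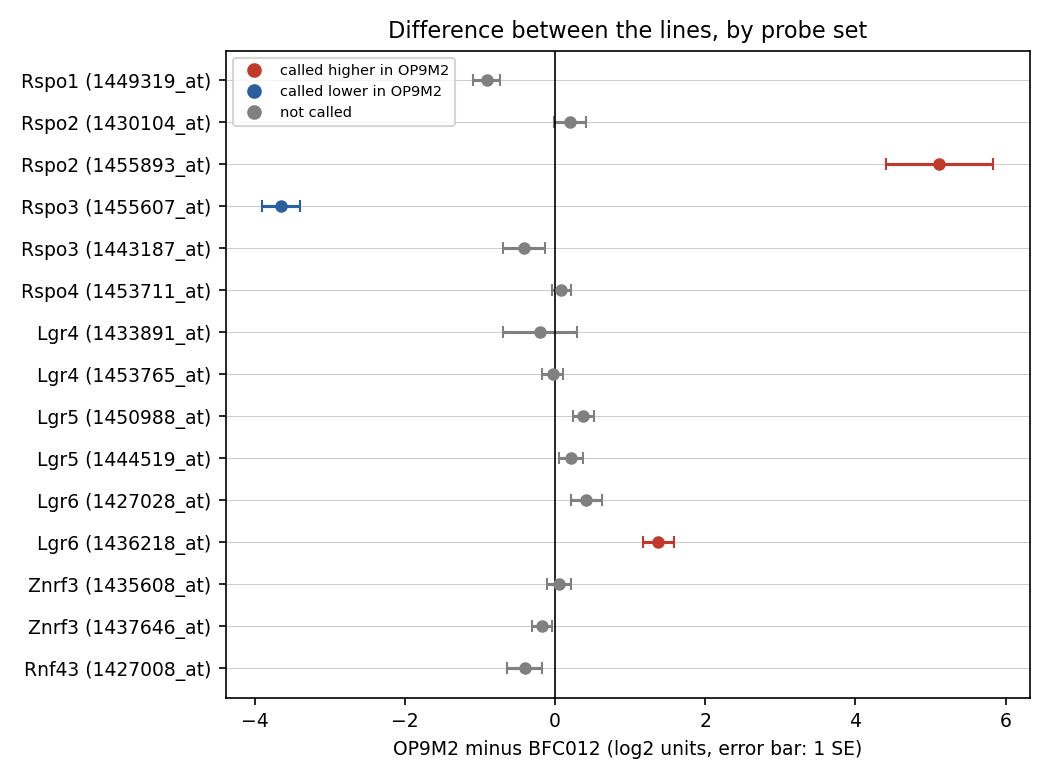
Log2 difference OP9M2 minus BFC012 (horizontal axis, error bars 1 SE, n = 2 arrays per line) for the 15 probe sets (vertical axis), in red where called higher in OP9M2, blue where called lower and grey where not called. The Rspo2 probe set at 5.12 and the Rspo3 probe set at −3.65 stand apart from the other probe sets, which lie between −0.91 and 1.38.

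Beyond the 9 genes, 7 further lists were read, called the pathway lists. They held genes of the Wnt pathway, other partners of the module and other leucine-rich repeat receptors. Together they named 100 genes, of which 97 were measured. Of these, 2 were called higher in OP9M2, 9 were called lower and 86 were not called, with a median difference of −0.06. Over all genes, 2.36% were called higher and 3.56% lower.

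Of the 7 lists, that of Wnt receptors held the most calls. Of 16 Frizzleds and co-receptors, 5 were called lower in OP9M2 and 0 higher, and the median difference of the list was −1.09, against 0.032 for all genes. Fzd6, a Frizzled known for planar cell polarity in skin and hair, stood at 4.77 and 4.44 in OP9M2 against 10.71 and 10.81 in BFC012, a difference of −6.16 ± 0.17 (adjusted p = 0.00112) and at least 25.4-fold. Fzd3, a Frizzled of axon guidance, stood at 5.45 and 5.72 in OP9M2 against 6.99 and 6.65 in BFC012, a difference of −1.24 ± 0.19 (adjusted p = 0.0462) and at least 1.65-fold. Both were above background in BFC012 only. The Fzd3 call was lost without OP9M2 replicate 1.

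The other 3 calls were co-receptors linked mainly to Wnt signalling outside the beta-catenin branch. Ror1, a receptor tyrosine kinase for Wnt5a, stood at 4.59 and 3.59 in OP9M2 against 8.11 and 8.62 in BFC012. This was a difference of −4.27 ± 0.40 and at least 4.82-fold, with both OP9M2 arrays below background. The other Ror1 probe sets were below background on all arrays and were not called. Ptk7, a pseudokinase of planar cell polarity, was lower by 5.30-fold, at 8.17 and 8.29 in OP9M2 and 10.63 and 10.65 in BFC012. Ryk, a Wnt-binding pseudokinase, was lower by 2.15-fold, at 10.52 and 10.48 in OP9M2 and 11.55 and 11.65 in BFC012. The other Ryk probe sets differed by −0.89 and −1.10 and were not called (limma adjusted p = 0.0840 and 0.0573). Lrp6, the co-receptor that beta-catenin signalling requires, stood at 10.44 and 9.21 in OP9M2 against 10.87 and 11.00 in BFC012. Its difference of −1.11 ± 0.43 was not called (adjusted p = 0.272), and it was −1.72 without OP9M2 replicate 1, where it passed on the spread of the BFC012 pair alone. The OP9M2 arrays were 1.23 log2 units apart. The brightest uncalled Frizzleds were Fzd1, with a difference of −1.07 ± 0.35 (adjusted p = 0.209), and Fzd2, with −0.57 ± 0.31.

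Of 19 Wnt ligands, 3 were called lower in OP9M2 and 0 higher. Wnt4, which acts in kidney and female reproductive tract development, was lower by 6.94-fold, at 6.32 and 6.73 in OP9M2 and 8.90 and 9.74 in BFC012. Wnt9a, known from joint formation, stood at 5.79 and 6.59 in OP9M2 and 8.27 and 9.07 in BFC012, a difference of −2.48 ± 0.40 (adjusted p = 0.0487), with 1 of the OP9M2 arrays below background. Wnt10a, a ligand of tooth and hair development, was lower by at least 1.51-fold, at 5.59 and 5.40 in OP9M2 and 6.56 and 6.82 in BFC012. Wnt5a, the main ligand of Ror receptors, did not hold a direction. It stood at 7.95 and 11.08 in OP9M2, on either side of the 9.45 and 10.31 in BFC012, and its difference was −0.37 ± 1.09. Without OP9M2 replicate 1 it was 1.20, and without OP9M2 replicate 2 it was −1.94, which passed only with the OP9M2 spread left out.

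Inside the cell, 0 of 19 genes of beta-catenin transduction were called, with 3 at an unadjusted p under 0.05. Ctnnb1, which encodes beta-catenin, differed by −0.10 ± 0.13, and Csnk1a1, a kinase that marks beta-catenin for destruction, by −0.19. Apc, named after its values were seen, passed the adjusted p threshold but fell short of 1 log2 unit (−0.89 ± 0.13, limma adjusted p = 0.0416). Its other probe sets were not called. Those above background differed by −0.82 and −1.02 (adjusted p = 0.172 and 0.0529), and 1 below background differed by 0.35. Of 12 measured target genes of beta-catenin, 0 were called by the brightest probe set, with 3 at an unadjusted p under 0.05. Ccnd1, a cyclin of the cell cycle, differed by −0.18 ± 0.18, and Myc, a growth regulator, by −1.21 ± 0.30 (adjusted p = 0.123). Axin2, a feedback inhibitor often used to read Wnt activity, was picked out after its values were seen. It stood at 6.85 and 7.07 in OP9M2 against 7.47 and 8.67 in BFC012, a difference of −1.11 ± 0.43 (adjusted p = 0.269). Apcdd1, a Wnt inhibitor and target, shared with Rspo2 a disagreement between probe sets. Its brightest probe set differed by −1.17 ± 0.36 (adjusted p = 0.187), while 4 of its 6 probe sets were called lower, by at least 6.73-fold to at least 29.0-fold, with both OP9M2 arrays below background in each.

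The secreted antagonists held the largest differences of the lists, in both directions. Sfrp2, a Frizzled-related protein that binds Wnts, was lower in OP9M2 by at least 92.5-fold, at 3.59 and 3.51 in OP9M2 and 12.62 and 12.63 in BFC012 (adjusted p = 0.00105). Dkk3, a divergent member of the Dickkopf family, was higher by at least 44.0-fold, at 11.95 and 11.15 in OP9M2 and 5.58 and 5.56 in BFC012 (adjusted p = 0.00282). The other 11 measured antagonists were not called. The brightest of these, Kremen1, a receptor for Dickkopf proteins, differed by 0.74 ± 0.16 (adjusted p = 0.0954).

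Of 14 other partners of the module, 1 was called higher and 0 lower by the brightest probe set. Sdc3, a heparan sulphate proteoglycan of the syndecan family, to which R-spondins can bind, was higher by 5.66-fold, at 9.94 and 10.50 in OP9M2 and 7.79 and 7.65 in BFC012. Its other probe sets were not called, and 1 of them, above background on all 4 arrays with overlapping lines, differed by 0.16 ± 0.18 (adjusted p = 0.727). Bmpr1a, a BMP receptor named after its values were seen, differed by −0.62 ± 0.14 by its brightest probe set (adjusted p = 0.0982), while 2 of its 6 probe sets were called lower, by −1.16 and −1.30. Sdc4, the syndecan through which Rspo3 signals in frog embryos, differed by −0.51 ± 0.15 (adjusted p = 0.164). Iqgap1, a scaffold that binds Lgr4, differed by 1.00 ± 0.19 (adjusted p = 0.0661). Gpc1, a glypican named here after its values were seen, stood at 12.14 and 10.42 in OP9M2 and 8.00 and 7.90 in BFC012. Its difference of 3.33 ± 0.59 missed the threshold (adjusted p = 0.0596) and was called when dim probe sets were left out, with probe sets averaged per gene and with a variance prior that followed the mean. The OP9M2 arrays were 1.72 log2 units apart for Gpc1. Gpc4, another glypican named after its values were seen, went the other way, at 8.22 and 9.98 in OP9M2 and 11.09 and 11.35 in BFC012. Its difference of −2.11 ± 0.61 was not called (limma adjusted p = 0.164). The 4 measured relatives of the Lgr receptors among glycoprotein hormone and relaxin receptors were below background on all arrays, and 0 were called, with 0 at an unadjusted p under 0.05.

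**Figure D3:**
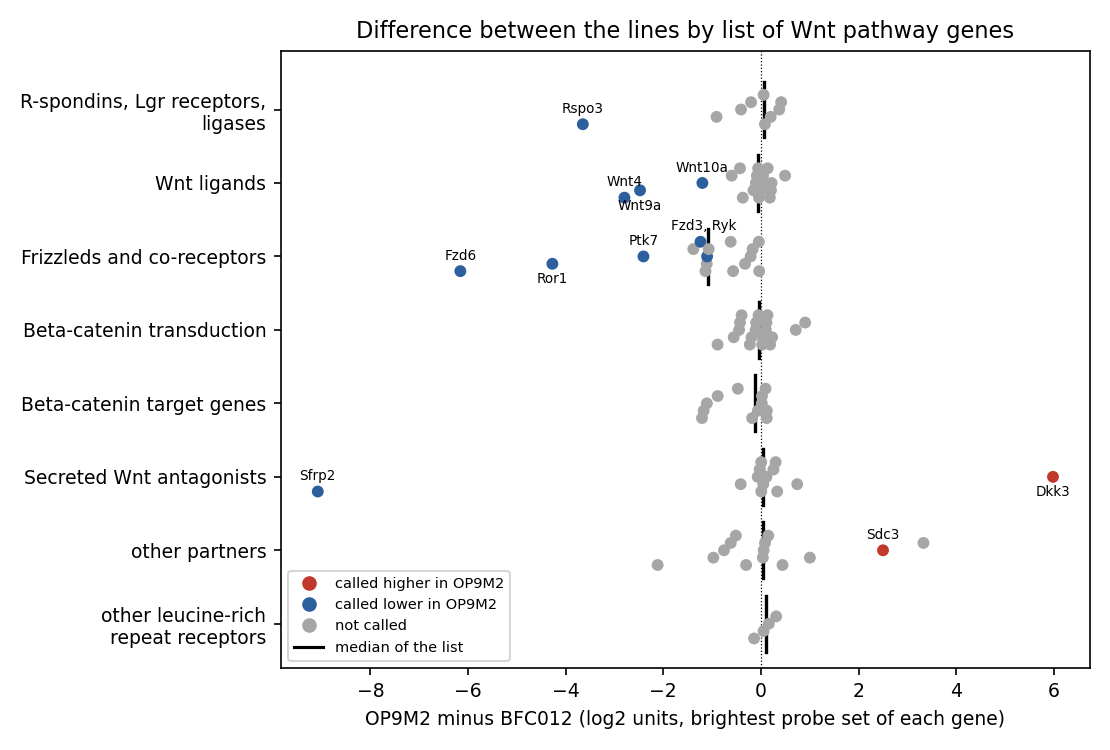
Log2 difference OP9M2 minus BFC012 (horizontal axis) for every measured gene of the R-spondin module and of the 7 pathway lists (vertical axis). Each gene is 1 point by its brightest probe set, with called genes named and the median of each list as a black bar. The 16 Frizzleds and co-receptors have a median of −1.09, and the medians of the other lists lie between −0.12 and 0.11.

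For each called probe set, the 3 genes with the most similar values over the 4 arrays were found by the Euclidean distance between values centred on their own mean. The distance was 0.86 log2 units or more for Rspo2, whose closest genes were Pkia, an inhibitor of protein kinase A, Evi2a and Ampd3, an AMP deaminase. Pkia stood at 8.69 and 10.09 in OP9M2 against 5.08 and 4.76 in BFC012, with the higher OP9M2 value again on replicate 2. The genes closest to Rspo3 were Epha4, an ephrin receptor, at 0.173, Tmem88, a membrane protein that binds Dishevelled, at 0.251, and Cdh3, which encodes P-cadherin, at 0.267. Epha4 stood at 4.91 and 5.45 in OP9M2 against 8.92 and 8.41 in BFC012, which put it on the same sides of the background level as Rspo3. The genes closest to Lgr6 probe set 1436218_at were P2rx7, an ATP-gated channel, Dubr and Thap2, at 0.0768 to 0.129. With 4 arrays such likeness describes these values only.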

How the data were processed

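Total RNA of 2 OP9M2 and 2 BFC012 cultures was amplified with an Ambion kit and hybridized by the authors. The deposited values are 1 intensity per probe set and array. The submitters' processing notes name RMA and affy, and no version is given in the sources used here. Between 6.31% and 6.57% of an array's values exceeded the scanner maximum of 65535, so the natural log was read as the RMA log2 value; the base is not stated. Read as log2, all differences would be 1.44 times larger with the same adjusted p. More probe sets could then reach 1 log2 unit and be called, and Apc would be called lower.

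After 64 array controls were left out, 45037 probe sets entered limma (version 3.58.1, under R 4.3.3; lmFit with eBayes, 2 residual and 2.50 prior degrees of freedom, both directions) with Benjamini-Hochberg adjustment, and the script was tested on simulated data. Precision is limited by the number of arrays. By the array annotation 34945 probe sets named 1 gene, 932 several and 9160 none. Symbols were updated from the mouse reference table for 34741. A gene stood for its brightest probe set, by the mean over the 4 arrays, among those naming it alone. This rule can pass over a probe set that is bright in 1 line only. Background was set at the 95th percentile of 81 olfactory, vomeronasal and trace amine receptor probe sets. Intervals of 95% used the moderated SE and degrees of freedom.

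The 9 genes, the pathway lists and the marker lists were chosen with earlier results of these data known. Named were the 9 genes, the called genes of each list and up to 4 of its brightest uncalled genes, plus the 3 genes nearest to each called member; exceptions are stated. The alternatives were other scalings, a filter on dim probe sets, other gene summaries, leaving out each array and a replicate block.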

Additional observations from a re-analysis of the deposited data

How the results depend on the processing

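Leaving out an array leaves 1 in its line, which is then assumed to vary like the other line, so these counts depend on which pair gives the spread. Leaving out each array in turn gave 0 to 2316 called genes over the whole array against 1076, with 0 without either BFC012 array (2208 and 2252 genes at an unadjusted p under 0.05), 1672 without OP9M2 replicate 1 and 2316 without OP9M2 replicate 2. Of these 2316, 50.8% were higher, against 39.9% of the 1076. Over the same settings, the 9 genes gave 0 to 1 called lower, their probe sets 0 to 3 called, and the pathway lists 0 to 4 called higher and 0 to 14 called lower. Without BFC012 replicate 1 or 2, on the wider OP9M2 spread, Rspo3 was not called (adjusted p = 0.125 and 0.119, differences −3.42 and −3.87), nor was Rspo2 probe set 1455893_at (0.348 in both). With the spread of the BFC012 pair alone, Lrp6, Iqgap1 and Gpc1 (without OP9M2 replicate 1) and Wnt5a, Myc and Gpc1 (without OP9M2 replicate 2) were called. The arrays share replicate numbers, which are not known to pair the cultures, and the deviations of same-numbered arrays correlated at −0.10. With the number as a replicate block, 420 genes were called in all, 0 of the 9 genes lower, 0 of their probe sets, and 1 higher and 5 lower in the pathway lists, with Rspo3 at an adjusted p of 0.0503. With crossed numbers, chosen after seeing the data, 1 probe set of the 9 genes and 4 lower pathway genes were called. With probe sets averaged per gene, 1 of the 9 genes (Rspo2) was called higher, and the differences of Znrf3 (−0.058), Ccnd1 (0.060) and Sfrp1 (−0.10) changed sign. Leaving out each array, differences that changed sign ran from −0.042 to 0.44 for Rspo2 probe set 1430104_at, −0.90 to 0.50 for Lgr4 probe set 1433891_at, −0.10 to 0.028 for Lgr4 probe set 1453765_at, −0.082 to 0.20 for Znrf3, −1.94 to 1.20 for Wnt5a, −0.087 to 0.14 for Wnt7b, −0.18 to 0.27 for Sfrp1, −0.29 to 0.016 for Fshr and −0.061 to 0.38 for Tshr. Of 55 genes and probe sets followed, 45 kept their sign in every setting. The causes were not tested.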
